A study of Mus musculus with 28 samples.

Results

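Genes for collagen chains, laminin chains and other proteins of the basement membrane were followed in synchronised mouse testes, in whole testes of NANOS2 KO mice and in sorted Sertoli cells. The 59 genes were taken by name alone from 43280 gene rows. They comprise 42 collagen chains, 11 laminin chains and the 6 genes Nid1, Nid2, Fn1, Hspg2, Agrn and Sparc; 2 collagen chains were left out of the set. The NANOS2 KO libraries, on the CD1 background, number 18, with 2 for each of 9 days from day 42 to day 50 after an injection of retinoic acid. NANOS2 is an RNA-binding protein of male germ cells, and testes without it lose their germ cells. The sorted libraries number 10 and come from RFP-positive cells of mice labelled RFP heterozygote, Amh-Cre-positive, in which the Amh promoter, active in Sertoli cells, drives the Cre that switches on a red reporter. They form 5 groups of 2, each named for the seminiferous stages it was enriched in: Group B (I-III), Group C (IV-VI), Group D (VII-VIII), Group E (IX-X) and Group A (XI-XII). Strain labels read C57BL/6 x 129s4/SvJae, except for Group A replicate 1, which carries C57BL/6 x Amh-Cre. All mice, of both sets, were given WIN 18,446, an inhibitor of retinoic acid production, over 7 days ahead of the retinoic acid, and were kept for 42 to 50 days after it. The labels call every library Sertoli, yet the NANOS2 KO libraries hold whole testis, with interstitial, vascular and peritubular cells.

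Sertoli cells, the supporting cells of the seminiferous tubule, rest on a basement membrane that they build together with the peritubular myoid cells outside it. Its main network is collagen IV, secreted as triple helices of α chains, and its other network is laminin, a trimer of an α, a β and a γ chain. Nidogens and the proteoglycan perlecan (Hspg2) link both networks, and collagens XV and XVIII sit at the border to the surrounding tissue. Fibril-forming collagens and collagen VI belong to the interstitial matrix.

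Poly(A) RNA was sequenced to a total of 1336742 to 4370138 counts per NANOS2 KO library and 1901743 to 5279746 per sorted library. Levels below are in CPM, counts scaled to the same library total; 3 counts equal 0.686 to 2.24 CPM in NANOS2 KO libraries and 0.568 to 1.58 CPM in sorted ones, counting error only. The 20 genes of the Sertoli list were found in both sets, with a summed level of 15590 to 18012 CPM in NANOS2 KO and 8199 to 13380 CPM in sorted cells. Clu alone had a mean of 10743 CPM in NANOS2 KO and 4977 CPM in sorted cells, so scaling by this list, used below, rests largely on Clu. Of the 20 genes, 7 were higher and 9 lower in NANOS2 KO (38% and 47% of all genes), with a median log2 fold change of -0.02. The 15 spermatid genes summed to 157 to 228 CPM in NANOS2 KO and 3769 to 19480 CPM in sorted libraries, which therefore also carry germ cell RNA. Odf2 (mean 186 CPM) made up most of the sum in NANOS2 KO, where 13 of the 15 genes had a mean under 1 CPM. Myoid, stroma, endothelial and Leydig lists summed to 1175 to 1483, 1016 to 1650, 169 to 284 and 2907 to 7913 CPM in NANOS2 KO, against 360 to 501, 35.1 to 200.2, 19.1 to 49.4 and 90.3 to 487 CPM in sorted cells. Of the genes in those lists, Insl3 and Lhcgr of Leydig cells and Dpt of stroma were at 0 in every sorted library. A mean under 1 CPM in sorted cells was found for 1 of 11 myoid, 5 of 11 stroma, 3 of 11 endothelial and 3 of 9 Leydig genes. Others were present in every sorted library, such as Star (11.5 to 29.8 CPM), Fdx1 (17.9 to 35.8), Acta2 (24.2 to 43.1) and Pdgfra (3.88 to 18.5). Mylk (mean 182 CPM) and Actg2 (159 CPM) made up most of the myoid sum in sorted cells. Myh11, Tagln, Des and Cnn1 of that list had means of 15.5, 4.74, 2.80 and 1.88 CPM there. In such bulk libraries, fewer cells of a type and less RNA per cell cannot be told apart. The libraries of Group C differed from each other in several of the genes described here, and NANOS2 KO day 49 replicate 1 had a mitochondrial share of 0.715%, against 2.33 to 3.24% in the other 17. Whether replicates came from separate animals is not stated, and p-values therefore measure the spread between these samples.

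Per length of exon, which allows genes to be compared, Sparc stood first in both sets, at a mean of 718 CPM per kb in NANOS2 KO and 337 CPM per kb in sorted cells. Sparc is a small secreted collagen-binding protein. In NANOS2 KO testes it was followed by Lamb2 (171 CPM per kb), Lamc3 (69.0), Lama1 (58.7) and Col6a1 (49.1). In sorted cells it was followed by Col18a1 (30.6 CPM per kb), Lamb2 (19.0), Lama1 (15.7) and Nid1 (15.004). Lamb2 thus had the most RNA per length of the β chains and Lama1 of the α chains in both sets. The γ chains differed in order: Lamc3 exceeded Lamc1 per length in 18 of 18 NANOS2 KO libraries, by a median ratio of 2.87, and in 2 of 10 sorted libraries, where the median ratio was 0.468.

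For Lama1 over Lama2 and Lamb2 over Lamb1 the order was the same in every library, and only the size of the ratio differed between the sets. Lama1, which encodes the α chain of the first laminin of the embryo, exceeded Lama2, the α chain of muscle basement membranes, by a median ratio of 4.05 per length in NANOS2 KO (range 2.73 to 5.42) and by 54.4 in sorted cells (range 22.6 to 128). The ratio of Lamb2 to Lamb1 was 6.25 in NANOS2 KO (range 5.45 to 7.90) and 34.8 in sorted cells (range 11.2 to 64.5). No library of the other set reached either range.

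**Figure D1:**
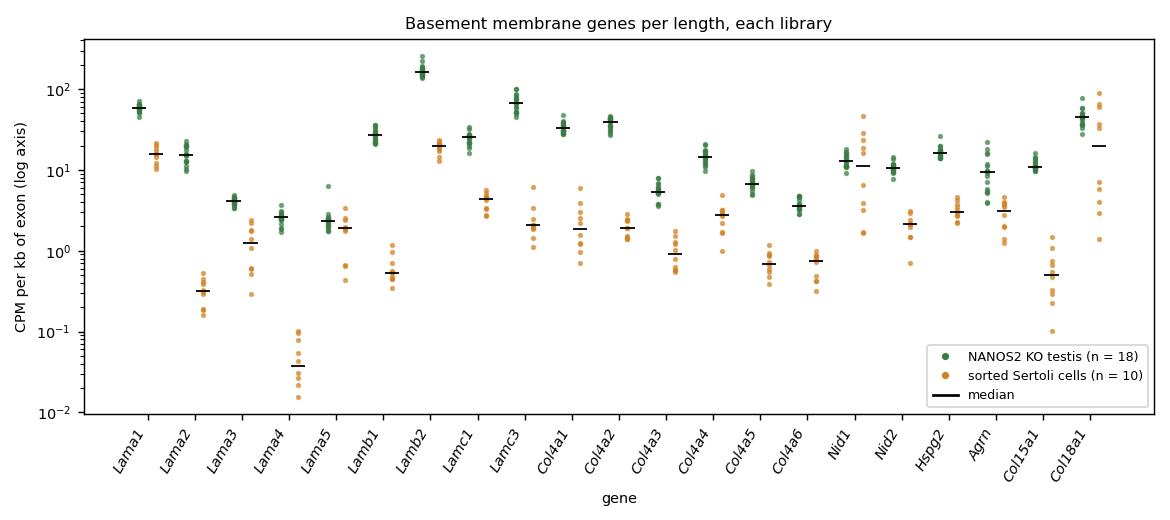
Level of 21 basement membrane genes in CPM per kb of exon (log axis), with NANOS2 KO testes (n = 18) left of sorted Sertoli cells (n = 10) for each gene; points are libraries and lines are medians. Lamb2 and Lama1 are high in both sets, the ranges of Col18a1 and Nid1 overlap between the sets, and 1 sorted library with Lama4 at 0 is not drawn.

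The first comparison asks which of these genes change along the seminiferous cycle. In sorted cells, 10 of the 43 genes that passed the filter on low counts differed among the 5 stage groups (edgeR quasi-likelihood F test, Benjamini-Hochberg adjusted p under 0.05), which is 23.3%, against 8.07% of all 14331 genes tested. The 10 were Lama3, Sparc, Col27a1, Col23a1, Col18a1, Col20a1, Nid1, Col28a1, Col6a4 and Lama5. They did not move together: Nid1, Col18a1, Col27a1 and Col28a1 were highest in stages VII-VIII, Lama3 in IV-VIII, and Sparc, Col20a1 and Col23a1 were lowest in IV-VIII. The other 33 tested genes did not pass, and 6 of these had an unadjusted p under 0.05.

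**Figure D2:**
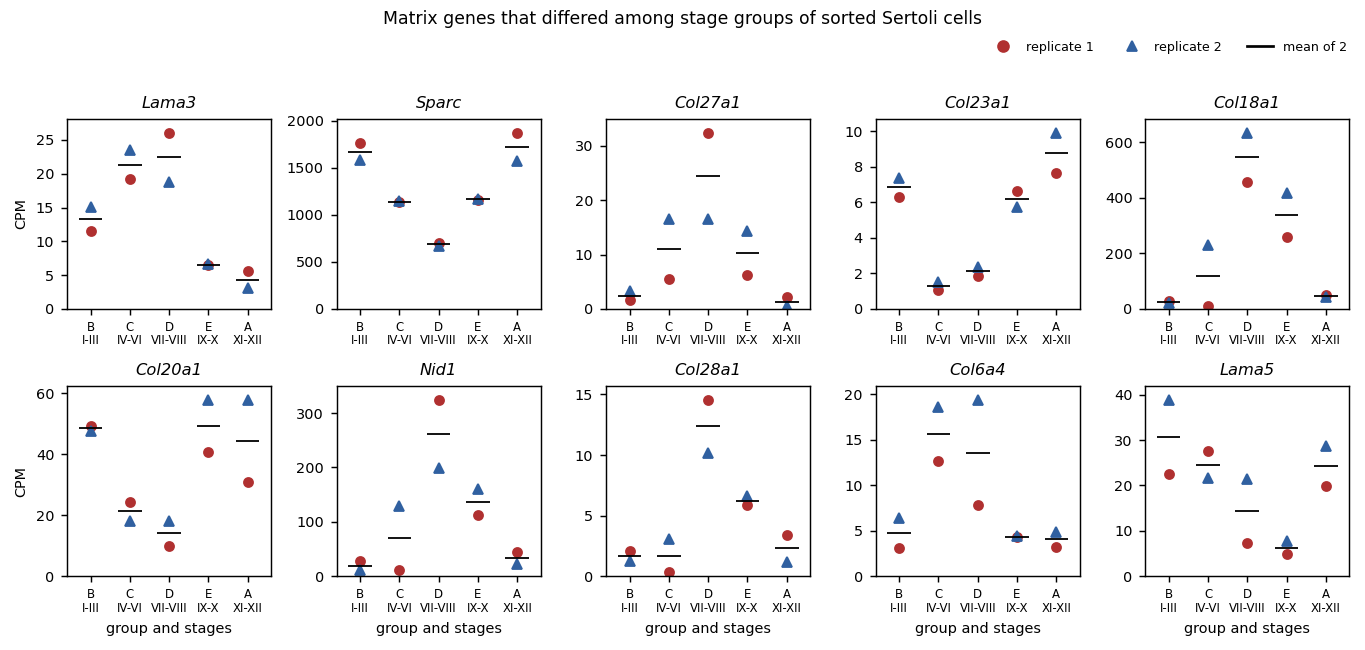
CPM of the 10 matrix genes that differed among the stage groups in sorted Sertoli cells, with groups in cycle order on the x axis; circles and triangles are replicates 1 and 2 and bars are means of 2. Nid1 and Col18a1 peak in Group D, where Sparc is lowest, and the libraries of Group C lie far apart for both.

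Nid1 and Col18a1 had wide ranges over the stage groups. Nidogen 1 joins laminin to collagen IV, and the C-terminal part of the Col18a1 chain is released as endostatin. Nid1 had 27.3 and 11.5 CPM in stages I-III, 12.0 and 129 CPM in IV-VI, 323 and 198 CPM in VII-VIII, 112 and 161 CPM in IX-X, and 45.1 and 22.3 CPM in XI-XII. Col18a1 had 27.9 and 20.8 CPM in I-III, 9.79 and 230 CPM in IV-VI, 457 and 635 CPM in VII-VIII, 258 and 419 CPM in IX-X, and 49.5 and 41.1 CPM in XI-XII. Both genes were thus high in VII-X and low in XI-III, and within Group C replicate 2 was high for both and replicate 1 low for both. In Group D, Nid1 was 2.35 higher on the log2 scale than in the mean of the other groups (SE 0.51, adjusted p = 0.0117) and Col18a1 2.70 higher (SE 0.55, adjusted p = 0.00882), and no other library reached the Group D values of either gene. Per length, Col18a1 exceeded Nid1 in 9 of 10 sorted libraries, by a median ratio of 1.78.

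The stretches just before the first exon of both genes are shown because the genes share this pattern, with matches to the GC box GGGCGG and the CCAAT box CCAAT, on either strand, in capitals. Both were taken from the RefSeq promoters of GRCm38.p6: Nid1 from chr13:13437352-13437550 on the plus strand and Col18a1 from chr10:77166549-77166780 on the minus strand.
Nid1: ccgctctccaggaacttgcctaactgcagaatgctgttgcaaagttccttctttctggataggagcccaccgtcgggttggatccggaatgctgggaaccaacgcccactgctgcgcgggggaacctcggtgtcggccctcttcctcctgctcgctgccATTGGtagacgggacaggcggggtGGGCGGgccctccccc
Col18a1: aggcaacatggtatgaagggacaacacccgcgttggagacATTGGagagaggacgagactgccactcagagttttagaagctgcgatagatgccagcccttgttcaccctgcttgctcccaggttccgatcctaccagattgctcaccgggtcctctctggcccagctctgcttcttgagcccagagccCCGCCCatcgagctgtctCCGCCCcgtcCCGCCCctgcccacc
Nid1 had 1 GC box and 1 CCAAT box, and Col18a1 3 GC boxes and 1 CCAAT box. Neither had a match to TATAAA, to the nuclear receptor motif AGGTCA or to the androgen receptor motif AGAACA. Of 48 promoters found for 43 of the 59 genes, 56.2% held GGGCGG and 29.2% CCAAT, against 32.7% and 33.8% of all 32851 promoters of the same length. Such matches describe letters and not binding.

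Col27a1 and Col28a1, chains of a fibril-forming collagen and of a collagen of nerve basement membranes, were also highest in Group D. Col27a1 had 1.58 and 3.20 CPM in stages I-III, 5.44 and 16.5 CPM in IV-VI, 32.4 and 16.5 CPM in VII-VIII, 6.25 and 14.3 CPM in IX-X, and 2.10 and 0.582 CPM in XI-XII. Col28a1 had 14.5 and 10.2 CPM in Group D, against 0.363 to 6.58 CPM in the other 8 libraries. In Group D the genes were 2.41 (SE 0.45, adjusted p = 0.00524) and 2.22 (SE 0.47, adjusted p = 0.0102) higher on the log2 scale.

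Of the laminin chains, Lama3, the α chain of epithelial laminins, was higher in Group D (1.20, SE 0.29, adjusted p = 0.0208), which made 5 of 43 genes higher there, against 4.36% of all genes (8.65% were called in either direction). It had 11.6 and 15.1 CPM in stages I-III, 19.2 and 23.5 CPM in IV-VI, 26.1 and 18.8 CPM in VII-VIII, 6.44 and 6.58 CPM in IX-X, and 5.54 and 3.11 CPM in XI-XII. Groups C and D were thus above groups E and A in every library, by 2.01 on the log2 scale (SE 0.29, adjusted p = 0.00071). Lama3 was the only one of the 10 genes whose call in the F test held with each library left out in turn and under the other settings tried. Its call in Group D was lost without either library of groups D and E and under scaling by the Sertoli list (0.91). In Group A it was lower than in the mean of the other groups (-1.67, SE 0.35, adjusted p = 0.0339), a call lost without any one of 7 libraries, both of groups A and E, Group B replicate 2, Group C replicate 2 and Group D replicate 1, without Group C altogether and under scaling by the Sertoli list (-1.58).

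Col6a4, a chain of collagen VI, had 12.7 and 18.6 CPM in IV-VI and 7.82 and 19.3 CPM in VII-VIII, against 3.16 to 6.41 CPM in the other 6 libraries. Groups C and D exceeded groups A and E by 1.76 on the log2 scale (SE 0.37, adjusted p = 0.00683), a call lost without Group D replicate 2. Its call in the F test (adjusted p = 0.048) was lost without any one of the 8 libraries of groups B to E and under 6 of 9 other settings, RLE scaling and scaling by the Sertoli list among them. Col4a1, a chain of the ubiquitous collagen IV, followed the same contrast (1.25, SE 0.37, adjusted p = 0.0392), with 44.2 and 22.2 CPM in Group C and 9.31 and 19.1 CPM in Group D, against 5.303 to 16.3 CPM in groups A and E. The groups overlapped for Col4a1, and its call was lost without any one of 5 libraries, both of Group E, Group A replicate 1, Group C replicate 1 and Group D replicate 2. With Col27a1 and Lama3, 4 of 43 genes were higher in groups C and D (7.29% of all genes) and 4 lower (6.92%), 14.2% of all genes being called.

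Sparc ran the other way. It had 1765 and 1578 CPM in stages I-III, 1134 and 1143 CPM in IV-VI, 702 and 666 CPM in VII-VIII, 1160 and 1166 CPM in IX-X, and 1870 and 1574 CPM in XI-XII. The replicates lay close together and Group D lay below every other library, by 1.07 on the log2 scale relative to the mean of the other groups (-1.07, SE 0.20, adjusted p = 0.0054). Col20a1, a fibril-associated collagen, had 10.1 and 18.3 CPM in Group D and 24.3 and 18.3 CPM in Group C, against 30.9 to 57.7 CPM in the other 6 libraries (Group D, -1.47, SE 0.34, adjusted p = 0.0173). Col4a4, a collagen IV chain of restricted occurrence, was the third gene lower in Group D (-1.09, SE 0.31, adjusted p = 0.0487), with 10.4 and 18.3 CPM there, against 17.4 to 51.8 CPM in the other 8 libraries, an overlap with Group C replicate 2. Its call was lost without any one of 7 libraries, both of groups B, D and E and Group C replicate 1. Thus 3 of 43 genes were lower in Group D, against 4.28% of all genes.

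Col23a1, a transmembrane collagen, had 1.09 and 1.52 CPM in Group C and 1.86 and 2.35 CPM in Group D, against 5.71 to 9.90 CPM in groups B, E and A. The ranges did not overlap, and groups C and D lay 2.15 below groups A and E on the log2 scale (-2.15, SE 0.36, adjusted p = 0.00209). It was also called lower in Group C (-2.00, SE 0.48, adjusted p = 0.048) as the only one of 43 genes (2.64% of all genes were called there, 0.691% lower and 1.95% higher), and higher in Group A (1.45, SE 0.33, adjusted p = 0.0467), where with Lama3 2 of 43 were called, against 1.67% of all genes (0.789% higher and 0.886% lower). The Group C call was lost without any one of 9 libraries, all but Group A replicate 1, and the Group A call without any one of the 10. Lama5, an α chain of adult epithelia, had 22.6 and 38.8 CPM in I-III, 27.6 and 21.6 CPM in IV-VI, 7.44 and 21.4 CPM in VII-VIII, 4.92 and 7.68 CPM in IX-X, and 19.9 and 28.7 CPM in XI-XII, with an adjusted p of 0.0497 in the F test. That call was lost without any one of 7 libraries, both of groups B, C and E and Group D replicate 1, under RLE scaling and when genes of at least 1 CPM in NANOS2 KO were tested. Its mean was lowest in IX-X, but in neither Group B nor Group E was any of the 43 genes called against the mean of the others (edgeR; 0.0419% and 0.523% of all genes were, 0.251% higher in Group E); in Group B 9 of them and in Group E 14 had an unadjusted p under 0.05, and DESeq2 called 0 and 2.

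The other abundant genes of sorted cells showed no difference past the threshold. Lama1 had 99.1 CPM at its lowest, a median of 153 and 208 CPM at its highest, with its 2 lowest values in Group D (adjusted p = 0.235 in the F test). Lamb2 ranged from 79.4 to 143 CPM with a median of 121 (adjusted p = 0.645), Lamc1 from 22.5 to 47.0 CPM with a median of 36.1 (adjusted p = 0.817) and Hspg2 from 31.3 to 66.4 CPM with a median of 43.5 (adjusted p = 0.806). Col22a1, a collagen of tissue junctions, spanned 40.2 to 175 CPM with a median of 75.3 (adjusted p = 0.305), and Col16a1, a fibril-associated collagen, 11.9 to 58.6 CPM with a median of 26.4 (adjusted p = 0.832). None of these 6 genes passed the test, although Lama1 had group means from 103 CPM in Group D to 187 CPM in Group A. A further 16 of the 59 genes did not pass the filter in sorted cells, among them Lama4, with at most 3.99 CPM except for Col12a1 at 5.23 CPM.

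The stage pattern of Nid1 and Col18a1 ran beside that of other genes. Ptgds, in the Leydig list, had 423 and 267 CPM in Group D, 291 CPM in Group C replicate 2 and 155 and 237 CPM in Group E, against 42.1 to 74.9 CPM in Group C replicate 1 and groups A and B. Gsn, in the stroma list, had 137 and 170 CPM in Group D, 88.4 CPM in Group C replicate 2 and 57.0 and 105 CPM in Group E, against 19.5 to 25.6 CPM elsewhere. These genes made up most of both lists in sorted cells. Of the Leydig enzymes, Cyp17a1 stayed at or below 3.66 CPM in all 10 libraries, while Hsd3b1 was called higher in Group D (2.54, SE 0.59, adjusted p = 0.0194) and Group C (4.31, SE 0.51, adjusted p = 0.00121), with 3.72 and 2.88 CPM in Group D and 10.9 and 6.70 CPM in Group C, against at most 1.28 CPM elsewhere. The endothelial genes Tek (3.12, SE 0.48, adjusted p = 0.00176) and Cdh5 (1.80, SE 0.39, adjusted p = 0.0123) were higher in Group D as well, and the stroma gene Pdgfra in groups C and D against A and E (1.43, SE 0.26, adjusted p = 0.00304). In that contrast 3 of 6 tested endothelial, 2 of 3 stroma and 1 of 5 Leydig genes were higher, and of 9 myoid genes 2 were higher and 1 lower. Of all genes, 7.29% were higher in it and 6.92% lower. The filter kept only 6 of 11 endothelial, 3 of 11 stroma, 5 of 9 Leydig and 9 of 11 myoid genes. A gene can pass it through the groups where it is high, as the values of Hsd3b1 show, so these shares do not describe the whole lists. The other 4 tested endothelial genes were not called in Group D, with log2 fold changes down to -1.14, and 4.36% of all genes were higher there. The summed spermatid list was lowest in Group D, at 3769 and 5122 CPM, against 10254 to 19480 CPM in the other libraries, and so was the macrophage list, at 191 and 179 CPM against 250.1 to 418 CPM. Aif1 (mean 163 CPM) and Mrc1 (126 CPM) made up most of the macrophage list in sorted cells. Csf1r (1.17 CPM) and Lyz2 (0.341 CPM) of that list were near 0 there, and Aif1 was lower in NANOS2 KO (8.98 CPM). The part of these cells and transcripts in the matrix results was not tested.

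The weight of single libraries was large in this set. Of the 8 genes called in Group D, 0 were called without Group D replicate 1 and 1 without replicate 2, where the remaining library was assumed to vary like those of the other groups. The F test called 1 gene without Group D replicate 1, 3 without replicate 2, 4 or 5 without either library of Group B or Group E, and 8 without Group C altogether. Among the 8 genes that separated groups C and D from A and E, Lama3, Col20a1 and Col23a1 were called with each library left out.

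Genes that process or bind these proteins were described by lists. Of 17 tested genes for collagen assembly, 1 differed among the stage groups: P4ha2, a subunit of prolyl 4-hydroxylase, which modifies collagen chains in the endoplasmic reticulum. It had 62.5 and 62.7 CPM in Group D and 23.2 and 58.8 CPM in Group C, against 3.44 to 18.6 CPM in the other 6 libraries (Group D, 2.43, SE 0.40, adjusted p = 0.00242). None of 17 receptor genes and none of 10 turnover genes differed in the F test, although 2 and 6 had an unadjusted p under 0.05. Of 17 other matrix genes, 2 differed, Matn2, an adaptor protein of the matrix (2.75 in Group D, SE 0.44, adjusted p = 0.00203), and Npnt, an integrin ligand of basement membranes (1.67, SE 0.37, adjusted p = 0.0143). In Group D, 3 of the 17 were called, Tnxb, a tenascin of connective tissue, being lower (-3.70, SE 0.98, adjusted p = 0.0334), with 0 and 0.261 CPM there, against 1.10 to 5.08 CPM in the other 8 libraries. The laminin receptor subunit Itga6 was the only one of 17 receptor genes called in Group D (-1.18, SE 0.34, adjusted p = 0.0453), with 19.7 and 20.6 CPM there, against 27.9 to 76.2 CPM.

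The second comparison asks whether the matrix genes change over the days in testes without germ cells. Across the 9 days, 2 of 47 tested genes differed by the F test, Lama2 (adjusted p = 0.0137) and Col6a2 (adjusted p = 0.0415), which is 4.26%, against 0.582% of 13065 genes. Along a straight line 4 of 47 fell and 0 rose, against 0.857% of all genes called, 0.367% falling and 0.49% rising. The 4 were Lama2, Col6a2, Nid1 and Col28a1. Their slopes ran from -0.08 to -0.20 on the log2 scale per day, over days 42 to 50. Genes of the cell type lists moved over the same days. The F test called 5 of 9 Leydig genes, among them Cyp11a1, Cyp17a1, Fdx1 and Ptgds, the stroma gene Meg3 and Uchl1, of the spermatogonia list. In NANOS2 KO 5 of the 10 genes of the spermatogonia list had a mean under 1 CPM, Sall4 without any count. On the line Igf1, of the stroma list, fell (-0.07, SE 0.02, adjusted p = 0.0314) and Insl3, of the Leydig list, rose (0.19, SE 0.04, adjusted p = 0.0314). The summed Leydig list was 2957 and 3023 CPM on day 42, 7770 and 7461 CPM on day 48 and 7913 and 4915 CPM on day 50, and its part in the matrix results was not tested.

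Lama2 had 371 and 346 CPM on day 42, 325 and 310 on day 43, 326 and 258 on day 44, 202 and 242 on day 45, 258 and 332 on day 46, 210 and 249 on day 47, 167 and 160 on day 48, 287 and 212 on day 49, and 182 and 210 on day 50. It was highest on the first day and lowest on day 48, with days 46 and 49 above their neighbours (slope -0.10 per day, SE 0.02, adjusted p = 0.0289). Nid1 had 125 and 116 CPM on day 42, 108 and 101 on day 43, 105 and 96.6 on day 44, 75.0 and 87.3 on day 45, 81.2 and 116 on day 46, 90.4 and 97.1 on day 47, 78.1 and 77.1 on day 48, 64.2 and 77.3 on day 49, and 75.6 and 77.0 on day 50. Every library of days 42 to 44 lay above every library of days 48 to 50 (slope -0.08, SE 0.01, adjusted p = 0.0172). The range of Nid1 over these 9 days, 64.2 to 125 CPM, was narrower than that over the stage groups, 11.5 to 323 CPM.

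Col6a2, a chain of the main collagen VI trimer, had 93.5 and 78.7 CPM on day 42 and 42.8 and 41.9 CPM on day 50 (slope -0.08, SE 0.02, adjusted p = 0.0473). Its values from day 43 to day 48 lay between 41.6 and 66.8 CPM, and day 49 had 72.3 and 51.7 CPM. Col28a1 had 3.97 and 7.78 CPM on day 42 and 1.34 and 2.11 CPM on day 50, with 1.26 to 5.46 CPM between, so that its slope of -0.20 (SE 0.05, adjusted p = 0.0489) rests on few counts. The calls of Col6a2 and Col28a1 on the line were lost without any one of 15 of the 18 libraries. For Col6a2 the call in the F test was also lost without any one of 15 libraries. It was lost as well under 4 of 8 other settings, the replicate block, scaling by the Sertoli list and both limma fits.

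**Figure D3:**
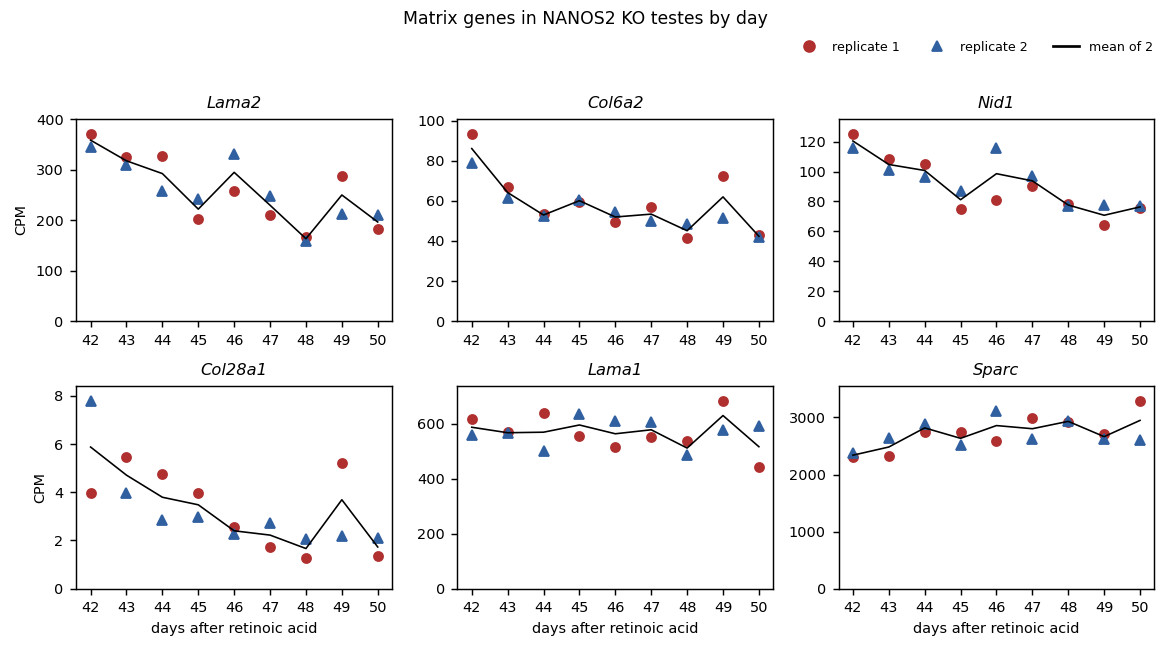
CPM of 6 matrix genes in NANOS2 KO testes from day 42 to day 50 after retinoic acid; circles and triangles are replicates 1 and 2 and lines join the means of 2. Lama2, Col6a2, Nid1 and Col28a1 fell along a line, while Lama1 and Sparc did not pass the test.

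The most abundant genes did not pass a test over days. Sparc ranged from 2301 to 3286 CPM with a median of 2673 (slope 0.03, SE 0.01, adjusted p = 0.175). Lamb2 ranged from 844 to 1543 CPM with a median of 1002 (adjusted p = 0.791 on the line), Lama1 from 442 to 682 CPM with a median of 567 (adjusted p = 0.878) and Lamc3 from 276 to 617 CPM with a median of 410 (adjusted p = 0.26). Lamb1, at 208 to 362 CPM, and Col18a1, at 198 to 545 CPM, had adjusted p of 0.127 and 0.472. NANOS2 KO day 49 replicate 1 held the highest value of 18 of the 47 tested genes, among them Lamb2, Lama1, Col18a1 at 545 CPM and Col3a1 at 462 CPM. Without this library the line called 9 of the 47 and the F test 6, and without either library of day 42 both called 0. The F test also called 0 without either library of day 48, and 13 without day 49 replicate 2, and the line called 0 without day 43 replicate 1. The part of the low mitochondrial share of day 49 replicate 1 was not tested.

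Among the related lists, the line called 1 of 16 turnover genes, the aggrecanase Adamts5 (-0.08, SE 0.02, adjusted p = 0.0314), and 1 of 27 other matrix genes, the elastic fibre protein Fbln5 (-0.06, SE 0.02, adjusted p = 0.0434), both lower with time. On the line, edgeR called 0 of 19 assembly and 0 of 20 receptor genes, of which 2 and 3 had an unadjusted p under 0.05.

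The third comparison sets whole NANOS2 KO testes against sorted Sertoli cells. Genotype, strain background, cell sorting and cell composition all differ between the sets and cannot be told apart. Of 51 tested genes, 40 were higher in NANOS2 KO and 7 lower, which is 92.2% called, against 38% of all 15777 genes higher and 47% lower (85.1% called). The median log2 fold change of the 51 genes was 2.13 and that of all genes -0.17. Every NANOS2 KO library lay above every sorted library for 33 of the 51 genes (23.6% of all genes) and below for 2 (18.3% of all genes). Summed over all 59 genes, the level was 8156 CPM ± 652 in NANOS2 KO (SD, n = 18) and 2410 CPM ± 243 in sorted cells (SD, n = 10), a ratio of 3.38 on library totals and 2.59 on the scaled sizes used for the fold changes below, which are therefore smaller than the ratios of CPM.

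**Figure D4:**
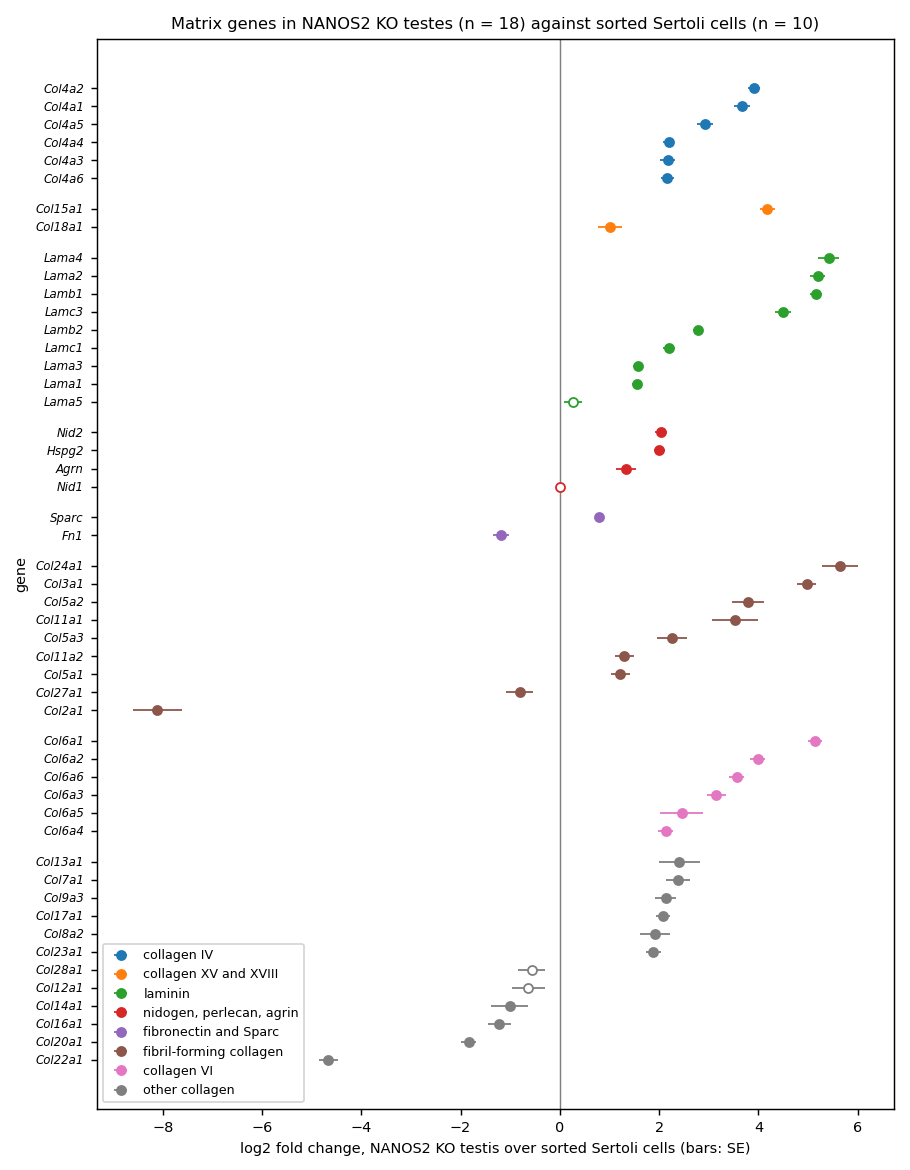
Log2 fold change of 50 of the 51 tested matrix genes, NANOS2 KO testis over sorted Sertoli cells, grouped by class; bars are standard errors and open circles did not pass the test. All 6 collagen IV chains lie above 0, Nid1 lies at 0 (drawn without a bar), and Col2a1 and Col22a1 lie lowest.

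All 6 collagen IV chains were higher in NANOS2 KO, without overlap of libraries. Col4a1 had 209 CPM at its lowest, a median of 245 and 355 CPM at its highest in NANOS2 KO, against 5.303, 13.9 and 44.2 CPM in sorted cells (3.67, SE 0.16, adjusted p = 7.57e-17). Col4a2 had 181, 261 and 305 CPM in NANOS2 KO, against 9.22, 12.7 and 18.9 CPM (3.90, SE 0.12, adjusted p = 1.17e-19). These chains, which form the trimer found in nearly all basement membranes, rose more than Col4a3 (2.17, SE 0.15), Col4a4 (2.19, SE 0.11) and Col4a6 (2.17, SE 0.14), with Col4a5 between (2.92, SE 0.15); the difference between chains was not tested. Per length, Col4a3 stood at a median of 0.374 of Col4a4 in NANOS2 KO (range 0.310 to 0.446) and 0.383 in sorted cells (range 0.206 to 0.646), below it in all 28 libraries. The median ratio of Col4a1 to Col4a2 was also similar in the sets, at 0.897 in NANOS2 KO (range 0.781 to 1.04) and 0.975 in sorted cells (range 0.507 to 2.08).

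The collagen IV chains lie head to head in the genome in GENCODE M21, each pair being transcribed away from a shared stretch. The start sites of Col4a4 and Col4a3 on chromosome 1 are 71 bases apart, those of Col4a6 and Col4a5 on the X chromosome 1308 bases, and Col4a1 and Col4a2 overlap by 22 bases at their starts. The stretch between Col4a4 and Col4a3, whose median ratio was similar in both sets, is shown from RefSeq (GRCm38.p6, chr1:82586850-82586920, minus strand).
Col4a4 to Col4a3: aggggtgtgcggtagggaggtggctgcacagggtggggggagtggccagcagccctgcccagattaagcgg
None of the 5 motifs searched has a match there, so no base is in capitals. The counting step is not known to use strand, and 5.65% of the exon bases of Col4a3 overlap an antisense gene, as do 8.45% of Nid2 and 6.27% of Lamc3.

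Of 10 tested laminin chains, 9 were higher in NANOS2 KO. Lamb1 had 208, 269 and 362 CPM (lowest, median and highest) in NANOS2 KO, against 3.41, 5.303 and 11.6 CPM in sorted cells (5.16, SE 0.11, adjusted p = 1.61e-22). Lama2 had 160, 253 and 371 CPM in NANOS2 KO, against 2.63, 5.18 and 8.70 CPM (5.19, SE 0.14, adjusted p = 1.19e-20), and Lama4, the α chain of vessel walls, 20.6, 31.2 and 44.1 CPM, against 0, 0.449 and 1.22 CPM (5.42, SE 0.22, adjusted p = 1.31e-17). Lamc3 had 276, 410 and 617 CPM in NANOS2 KO, against 6.82, 12.7 and 37.3 CPM (4.50, SE 0.16, adjusted p = 1.36e-18). The chains abundant in sorted cells had smaller differences: 2.78 for Lamb2 (SE 0.10), 2.20 for Lamc1 (SE 0.13) and 1.55 for Lama1 (SE 0.09). Lama3 was 1.58 higher (SE 0.11), while Lama5 did not pass (0.27, SE 0.18, adjusted p = 0.156), with 20.2, 26.5 and 71.6 CPM in NANOS2 KO, against 4.92, 21.5 and 38.8 CPM in sorted cells. Lamb3 was left out by the filter, with 9 counts over all NANOS2 KO libraries and 65 over the sorted ones.

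Among the linkers, Nid2 was 2.04 higher (SE 0.12), Hspg2 2.00 (SE 0.11) and Agrn, the heparan sulfate proteoglycan of the neuromuscular junction, 1.33 (SE 0.20). Hspg2 had 198, 234 and 375 CPM in NANOS2 KO, against 31.3, 43.5 and 66.4 CPM in sorted cells. Nid1 did not differ past the threshold (0.00, adjusted p = 1), with 64.2, 88.9 and 125 CPM in NANOS2 KO, against 11.5, 78.4 and 323 CPM in sorted cells, whose stage groups lay on both sides of the NANOS2 KO range. Per length, Nid1 exceeded Nid2 by a median ratio of 1.24 in NANOS2 KO and 6.52 in sorted cells, with sorted libraries from 0.586 to 21.6. Col18a1 was 1.01 higher (SE 0.24, adjusted p = 0.000495), with 198, 316 and 545 CPM in NANOS2 KO, against 9.79, 140 and 635 CPM in sorted cells, and its partner in class Col15a1 4.18 higher (SE 0.15, adjusted p = 1.07e-18), with 61.9, 68.6 and 102 CPM against 0.641, 3.21 and 9.44 CPM. For Nid1 both Group D libraries lay above every NANOS2 KO library, and for Col18a1 Group D replicate 2 did.

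Of 9 tested chains of fibril-forming collagens, 7 were higher in NANOS2 KO and 2 lower, and all 6 collagen VI chains were higher, by 2.13 to 5.13. Col6a1 had 178, 206 and 284 CPM in NANOS2 KO, against 1.05, 5.01 and 8.84 CPM in sorted cells (5.13, SE 0.15, adjusted p = 1.48e-20), and Col6a2 41.6, 54.1 and 93.5 CPM, against 1.33, 2.21 and 7.84 CPM (3.98, SE 0.15, adjusted p = 3.27e-18). Col3a1, a chain of reticular fibrils, had 157, 214 and 462 CPM in NANOS2 KO, against 2.23, 5.45 and 10.2 CPM (4.97, SE 0.19, adjusted p = 8.61e-18). The rises of Col11a2 (1.299, SE 0.19) and Col5a1 (1.21, SE 0.19) were smaller. Col24a1 had 3.71, 13.3 and 20.2 CPM in NANOS2 KO, against 0, 0.249 and 0.439 CPM, from 9 counts over all sorted libraries (5.65, SE 0.36, adjusted p = 3.4e-13). The sums of the myoid, stroma and endothelial lists were higher in NANOS2 KO too, as given above. Of 11 myoid genes 10 were higher and 1 lower, Actg2, with a mean of 8.15 CPM against 159 CPM in sorted cells. The part of these 3 lists in the rises of the matrix genes was not tested.

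Sparc, first in both sets, was 0.78 higher in NANOS2 KO (SE 0.06, adjusted p = 1.89e-11), with 2301, 2673 and 3286 CPM against 666, 1163 and 1870 CPM in sorted cells. Of the 7 genes that were lower, 6 encode collagen chains, and Col22a1, Col20a1 and Col16a1 were among the 10 highest per length in sorted cells. Col2a1, the fibril collagen of cartilage, had 4 counts over the 18 NANOS2 KO libraries, at most 0.567 CPM, against 4.84, 15.3 and 41.1 CPM in sorted cells (-8.11, SE 0.49, adjusted p = 7.48e-12). Col22a1 had 2.10, 4.56 and 6.36 CPM in NANOS2 KO, against 40.2, 75.3 and 175 CPM (-4.66, SE 0.19, adjusted p = 1.59e-17). These were the 2 genes without overlap of libraries.

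Col20a1 had 5.46, 12.0 and 18.1 CPM in NANOS2 KO, against 10.1, 35.9 and 57.7 CPM in sorted cells (-1.84, SE 0.15). Col16a1 (-1.22, SE 0.23), Fn1, the adhesive glycoprotein fibronectin (-1.18, SE 0.16), Col14a1 (-1.01, SE 0.38) and Col27a1 (-0.81, SE 0.27) were lower with overlapping libraries, with adjusted p from 1.45e-11 for Col20a1 to 0.0157 for Col14a1. The spermatocyte list summed to 36.4 to 78.7 CPM in NANOS2 KO and 1295 to 3232 CPM in sorted libraries, and the spermatogonia list to 135 to 277 CPM and 408 to 956 CPM. In NANOS2 KO, Hspa2 (mean 58.5 CPM) made up most of the spermatocyte sum, and 8 of the 10 genes had a mean under 1 CPM. Kit (mean 111 CPM, against 14.5 CPM in sorted cells) and Uchl1 (49.0 CPM, against 399 CPM) made up most of the spermatogonia sum. Of that list 2 genes were higher in NANOS2 KO and 6 lower, and 5 of 10 had a mean under 1 CPM there. The part of germ cells in the lower collagen and Fn1 values was not tested. Besides Lama5 and Nid1, Col12a1 and Col28a1 did not pass, and 8 of the 59 genes were not tested, none above 4.81 CPM in any library.

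Lists of related genes were mostly higher in NANOS2 KO too. Of all genes tested, 85.1% were called, 38% higher and 47% lower, so the share called in each list says little and the direction is given. Of 20 assembly genes, 17 were higher and 1 lower, with Pcolce, which enhances procollagen processing, at 5.33 (SE 0.16, adjusted p = 6.78e-20), Adamts2, a procollagen protease, at 3.37 (SE 0.12, adjusted p = 1.07e-18) and P4ha2 lower at -1.20 (SE 0.19, adjusted p = 2.93e-06). Of 21 receptor genes, 15 were higher and 4 lower, with the collagen receptor Ddr2 at 6.91 (SE 0.20, adjusted p = 2.48e-20) and the integrin subunit Itgb5 at -1.58 (SE 0.08, adjusted p = 9.99e-16). Of 16 turnover genes, 13 were higher and 1 lower, led by Adamts5 at 7.41 (SE 0.23, adjusted p = 9.08e-20), and of 28 other matrix genes 24 were higher and 3 lower, led by the proteoglycan Dcn at 8.42 (SE 0.17, adjusted p = 7.67e-23) and with Fbln1, fibulin 1, at -4.02 (SE 0.12, adjusted p = 7.88e-20). The median log2 fold changes of the 4 lists were 2.00, 1.31, 2.66 and 2.42, against -0.17 for all genes.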

How the data were processed

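Poly(A) RNA of 28 libraries was measured by sequencing on the Ion Proton, per the labels' protocols. Per the submitters' processing notes, the authors used Bowtie, TopHat and Cufflinks with mm10; neither versions nor the counting step is given in the sources used here. Raw counts, as whole numbers, fill the deposited count tables, which have 43280 gene rows. The deposited tables named FPKM hold CPM on library totals, equal to CPM computed from the counts to within 0.0005 in all 28 columns; every column was used. Of 2 columns with the same header for day 42, the replicate number came from the matching CPM column. Date-like strings stand for 27 gene symbols, which took 0.215 to 0.332% of counts and are not named.

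In R 4.3.3, edgeR 4.0.16 was used for the filter (filterByExpr), the TMM scaling and the quasi-likelihood F test, run separately for sorted libraries (14331 genes), NANOS2 KO (13065) and both together (15777), with Benjamini-Hochberg adjustment over all genes tested and a threshold of 0.05. The filter needs about 10 counts in a group's worth of libraries and 15 in total. Fold changes are log2, and SE is the log2 fold change divided by the root of F. Lengths are the exon bases of GENCODE M21 (GRCm38), which holds 91.1% of the symbols.

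Genes named with values are those called in a stage or day comparison, the 10 highest by mean CPM in each set and, between the sets, the 10 strongest rises and the strongest falls of called genes whose mean log2 CPM reached 3; related lists give counts and the genes of smallest p per direction (with no call, those of highest expression). The related genes are enzymes and chaperones of collagen assembly, receptors, proteases and inhibitors of turnover, and other matrix proteins. Cell type markers formed lists for Sertoli, myoid, stroma, endothelial, Leydig and macrophage cells, spermatogonia, spermatocytes and spermatids. The genes, lists and tests were chosen with earlier results of these data known. DESeq2 1.42.0 was an alternative, as were RLE scaling, no filter, a block for the replicate number, scaling by the Sertoli list, limma 3.58.1 on log2(CPM + 1) and log2(CPM + 0.1), genes of at least 1 CPM in NANOS2 KO, leaving out day 49 and leaving out each library; leaving out Group C was added after seeing the data. Scripts were tested on simulated data. Values of 1 gene of the set are not reported here; it stays in the counts.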

Additional observations from a re-analysis of the deposited data

How the results depend on the processing

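Counts of genes called are given as matrix genes, then all genes. With no filter they were 16 and 2764 for the stage F test, 7 and 901 for Group A, 2 and 307 for Group B, 5 and 988 for Group C, 1932 genes for Group D, 6 and 651 for Group E, 13 matrix genes for groups C and D against A and E, and 21 and 968 for the day F test. DESeq2 called 2000 genes in the stage F test, 4 and 527 in Group A, 108 genes in Group B, 2 and 649 in Group C, 2 and 285 in Group E, 215 in the day F test and 212 on the day line. Scaling by the Sertoli list called 16 genes in Group B, 0 matrix genes in Group C and 1 in the day F test. It moved the median of all genes by -0.31 in Group D, -0.10 in groups C and D against A and E, 0.22 in Group B and -0.27 in NANOS2 KO against sorted, where the median of the matrix genes became 1.88 with 40 higher and 9 lower; the share of called genes that were higher was 30.6% in Group D (50.4% with TMM), 39.5% in groups C and D against A and E (51.3%) and 42.3% on the day line (57.1%). With limma on log2(CPM + 1) and log2(CPM + 0.1), Group B had 0 and 1 genes, the day F test 1 and 1 matrix genes and 40 and 31 genes, and the day line 2 and 2 matrix genes and 28 and 26 genes. Testing genes of at least 1 CPM in NANOS2 KO gave 2 matrix genes in Group C and 24 genes in Group E.

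Without Group C, Group A had 1 and 139, Group B 2 and 72, Group D 2063 genes, and Group E 1 and 5. Without day 49 the day F test called 6 matrix genes and the day line 9 and 300. Deviations of same-numbered libraries correlated at -0.11 to 0.43 over 10 pairs of sorted groups (median 0.197), 6 of them over 0.1 and 4 under 0. Same-numbered sorted libraries thus varied together in part. Over 36 pairs of days the correlation was -0.27 to 0.13 (median -0.005), and replicate numbers did not pair the NANOS2 KO samples. With the replicate number as a block, Group A had 477 genes, Group B 24, Group C 4 matrix genes, Group E 1 and 170, the day F test 1 matrix gene and the day line 2 and 65.

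Leaving out 1 library at a time gave 1 to 12 matrix genes and 386 to 1518 genes in the stage F test, 0 to 3 and 85 to 297 in Group A, 0 to 2 and 0 to 72 in Group B, 0 to 2 and 163 to 580 in Group C, 0 to 9 and 289 to 1739 in Group D, 0 to 2 and 0 to 296 in Group E, 5 to 9 and 935 to 2115 in groups C and D against A and E, 0 to 13 and 18 to 879 in the day F test, 0 to 9 and 4 to 215 on the day line, and 46 to 49 and 13226 to 13431 in NANOS2 KO against sorted. Of the 47 genes called there, 45 were called under every alternative; Col14a1 and Col27a1 were not. No called gene reversed its direction under any alternative. On TMM effective sizes the summed level was 7423 CPM in NANOS2 KO and 2861 CPM in sorted cells. By CPM not divided by length, 8 of the 10 highest genes stayed in NANOS2 KO and 10 in sorted cells. The cause of these changes was not tested. Genes under about 2 CPM rest on a few counts per library, where differences were not detectable at this depth.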
